A study of Mus musculus with 3 samples.

Results

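Matrix metalloproteases (MMPs), the related ADAMTS proteases and their tissue inhibitors (TIMPs) were examined in c2c12 cells on 3 culture substrates. Members were taken by gene symbol, as every listed gene whose name begins with Mmp, Adamts, Adamtsl or Timp followed by a number, which gave 51 of the 23238 symbols in the count files. These are 23 MMPs, 19 ADAMTS proteases, 5 ADAMTS-like genes and 4 TIMPs. Of the 51, 31 reached a CPM of 1 (counts scaled to library size with TMM factors) in at least 1 library, among them 9 MMPs, 13 ADAMTS, 5 ADAMTS-like genes and 4 TIMPs. The other 20 stayed under this level on every substrate. The c2c12 line is an immortalized mouse myoblast line whose cells fuse into multinucleated myotubes when serum is withdrawn. All 3 cultures were kept for 2 days in myogenic induction medium with horse serum, either on tissue culture plates (TCP), on hydrogels of 15% w/v methacrylated gelatin (GelMA), or on hydrogels of 15% w/v GelMA holding 1% w/v poly(sodium 4-styrenesulfonate), a sulfonated polymer that mimics heparin (GelMA-PSS). Each substrate is represented by 1 library of 1 cell line, so the values below lack replicates and are given without p-values.

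MMPs and ADAMTS proteases are zinc enzymes that cut matrix proteins outside the cell. MMP2 and MMP9, called the gelatinases, cleave denatured collagen, which is the material of the GelMA substrates. MMP14 is the membrane-bound enzyme that activates proMMP2 together with TIMP2. ADAMTS proteases carry thrombospondin repeats, and different branches cleave proteoglycans such as versican and aggrecan, trim the N-terminal ends of procollagens, or cut von Willebrand factor. The ADAMTS-like proteins keep the repeats without a protease domain and bind fibrillin microfibrils, and TIMPs block the active site of the enzymes. In skeletal muscle these proteins act on the basement membrane around the fibers and on the transient matrix that surrounds fusing myoblasts.

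The enzymes share a zinc-binding site in which 3 histidines hold the metal ion beside a catalytic glutamate. In translated coding sequences of GENCODE vM21, a match to this motif was found in 22 of 23 MMPs, in 19 of 19 ADAMTS genes, in 0 of 5 ADAMTS-like genes and in 0 of 4 TIMPs. The MMP without a match was Mmp1a, which the annotation lists as a polymorphic pseudogene. The coding stretch over the site is shown 5′ to 3′ for both gelatinases, for the membrane-bound activator Mmp14 and for Adamts1 and Adamts14, because these stretches show what the catalytic members have in common and what sets the non-catalytic ADAMTS-like genes described next apart from them. Capitals mark the codons of the 3 zinc-binding residues and of the glutamate.
Mmp2: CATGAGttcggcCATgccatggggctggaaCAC
Mmp9: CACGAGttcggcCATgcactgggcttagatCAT
Mmp14: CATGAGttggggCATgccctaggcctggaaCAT
Adamts1: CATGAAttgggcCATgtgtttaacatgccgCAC
Adamts14: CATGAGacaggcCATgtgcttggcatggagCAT
In GRCm38 coordinates these genes lie at chr8:92827291-92853420 (Mmp2), chr2:164940780-164955850 (Mmp9), chr14:54431612-54445364 (Mmp14), chr16:85793827-85803113 (Adamts1) and chr10:61197112-61273438 (Adamts14). The site begins at codon 403 of 662 in Mmp2, at codon 239 of 582 in Mmp14 and at codon 402 of 968 in Adamts1.

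The deposited counts summed to 119799095 on TCP, 87071144 on GelMA and 192171443 on GelMA-PSS, and the members took 0.351%, 0.312% and 0.272% of these totals. The cell type on the label was checked against 9 listed markers of myoblasts and myotubes, and all 9 were above the CPM limit. Embryonic myosin heavy chain, Myh3, had a CPM of 10182 on TCP, 6355 on GelMA and 3037 on GelMA-PSS, and was the only one of the 9 past 2-fold against both controls. Its log2 ratios of -1.07 to GelMA and -1.75 to TCP were -0.61 and -1.41 after a correction for transcript length and GC content that is described below, so that it was then past 2-fold against TCP alone. The other markers were mixed. The myoblast factor Myf5 had a CPM of 13.9, 19.5 and 36.5, with log2 ratios of 0.87 to GelMA and 1.33 to TCP. Myod1 had 94.3, 105 and 119, with 0.19 and 0.34. After that correction the values were 0.53 and 1.07 for Myf5 and 0.04 and 0.23 for Myod1. Cdh15 was also above both controls, at 0.14 and 0.01. Acta1 (-0.09 and -0.29) and Ckm (-0.18 and -0.51) were below both, as Myh3 was. Myog, Des and Tnnt1 were above GelMA and below TCP as measured. After that correction Myog (-0.09 and -0.32) and Tnnt1 (-0.21 and -0.46) were below both controls. Des (0.19 and -0.02), Cdh15 (0.27 and 0.12), Acta1 (-0.38 and -0.52) and Ckm (-0.21 and -0.54) kept their directions. These genes were named after their values were seen. Summed CPM of macrophage markers stayed between 4.94 and 6.17, of endothelial markers between 2.44 and 3.96, of osteoblast markers between 23.0 and 31.0, and of adipocyte markers between 0.0550 and 0.0985. Fibroblast markers, several of which myoblasts also express, summed to between 443 and 535. In bulk RNA, fewer cells of a type and less RNA per cell cannot be told apart.

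Log2 ratios are differences of log2(CPM + 1), a scale that makes the change of low genes look smaller than it was, and a gene was called when its ratio passed 2-fold, over 13169 genes above the CPM limit. Against both controls, 0 members were higher and 3 were lower in the GelMA-PSS library, where 1.37% of all genes tested were higher and 1.16% lower. The 3 were Adamtsl1, Adamtsl2 and Adamtsl3. Against GelMA alone, 0 members were higher (1.77% of all genes) and the same 3 were lower (2.33%). Against TCP alone, Timp1 was the 1 member that was higher (3.72% of all genes), and 4 were lower (3.13%), Adamts1 being added. Between the control substrates 0 members were higher on GelMA (0.706% of all genes) and 0 were lower (0.296%). Log2 ratios of GelMA against TCP ran from -0.97 for Adamtsl2 to 0.81 for Mmp28, with a median of -0.03 over the 31 members.

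**Figure D1:**
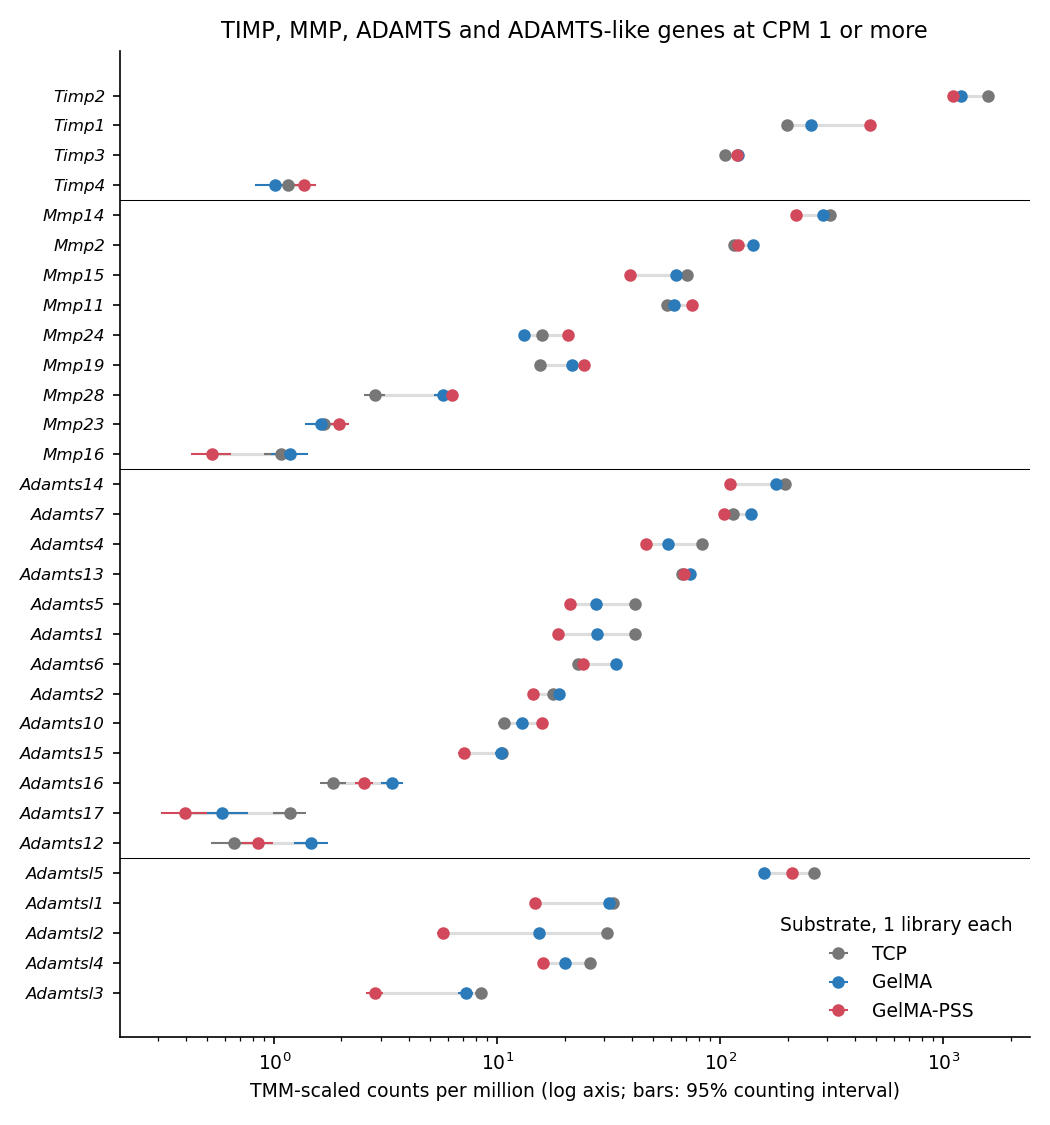
CPM of the 31 members at CPM 1 or more (log axis), by family and, within a family, by level on TCP. Each point is 1 library (grey TCP, blue GelMA, red GelMA-PSS) and bars give the 95% counting interval. Timp2 lies highest, at 1583, 1202 and 1106, and Adamtsl2 spans the widest range, from 31.2 on TCP to 5.72 on GelMA-PSS.

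Most expressed members lay short of 2-fold. Of the 31, 16 were lower than in both controls (51.6%, against 39.4% of all genes tested), 8 were higher than in both (25.8%, against 45.3%) and 7 lay between. The middle of their log2 ratios lay at -0.31 relative to GelMA and -0.29 relative to TCP, where all genes had medians of 0.03 and 0.04. Transcript length moved with these values. In these libraries the log2 ratio of GelMA-PSS fell with the length of the transcript over all 13060 genes with a length, with a Spearman's rho of -0.66 against GelMA and -0.50 against TCP. The members have long transcripts, with a median of 4506 bases against 2914, and among the 31 the rho was -0.54 and -0.39. These correlations are across genes, which share their libraries. After loess fits on transcript length and GC content were subtracted, the members' median was 0.00 against GelMA and -0.07 against TCP, with 12 members lower than both controls and 12 higher (38.7% each, against 40.7% and 40.8% of all genes). A ratio after this subtraction is called corrected below.

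**Figure D2:**
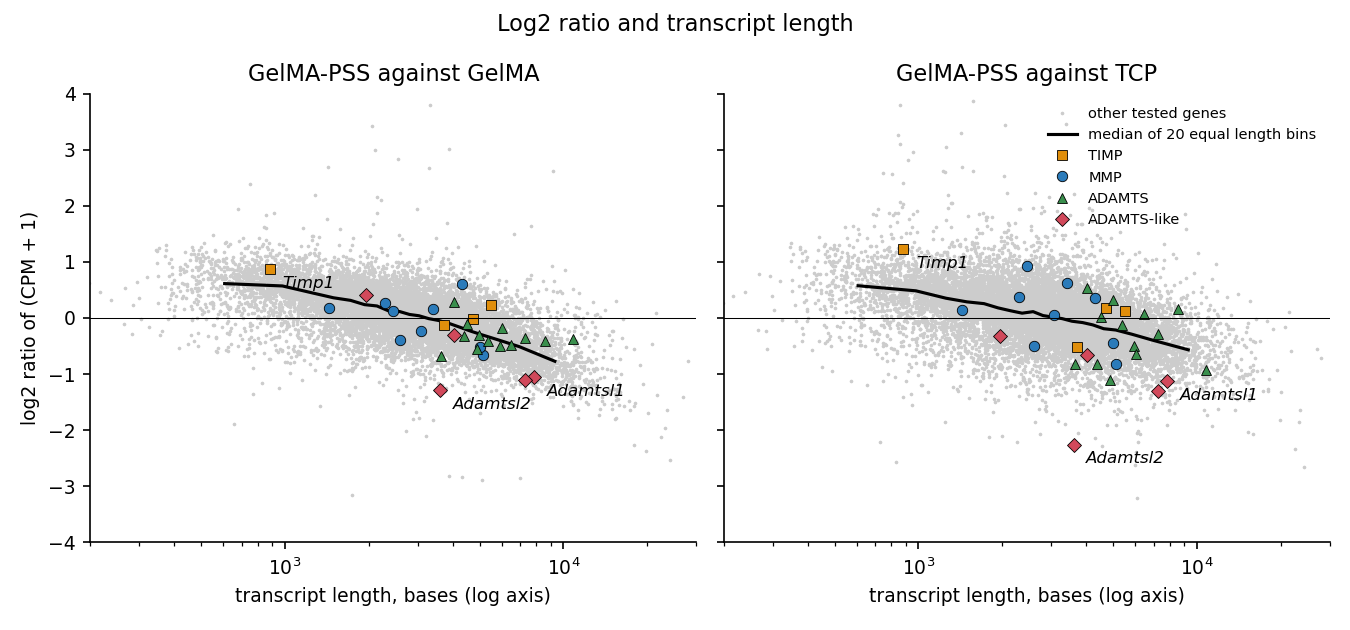
Log2 ratio of (CPM + 1) in GelMA-PSS against GelMA (left) and TCP (right) by transcript length in bases (log axis). Grey points are the other tested genes, the line joins medians of 20 length bins, and symbols are members by family, while 113 of 13060 genes lie outside the axes. Timp1, with 883 bases, lies on the short side, Adamtsl1, with 7839 bases, on the long side, and Adamtsl2, with 3612 bases, lies far below the line.

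The ADAMTS-like genes held all 3 members called lower than both controls on the log2(CPM + 1) scale. Without the pseudocount, ratios of Mmp16 and of Adamts8, a member under the CPM limit, were also past 2-fold against both, and they are given with their groups. Adamtsl2 encodes a secreted glycoprotein that binds fibrillin and a latent TGF-β binding protein, and it lies at chr2:27079379-27108981 on the + strand of GRCm38. Its CPM was 31.2 on TCP, 15.4 on GelMA and 5.72 on GelMA-PSS, from 3795, 1401 and 1036 counts. The level was highest on TCP and lowest on GelMA-PSS, with GelMA between them. The ratio of GelMA-PSS to TCP was 0.183 (95% counting interval 0.171 to 0.197) and of GelMA-PSS to GelMA 0.371 (0.342 to 0.402). On the log2 scale Adamtsl2 fell by 2.26 and 1.29, and it fell by 2.12 and 1.13 after the correction. It was the 1 member that stayed past 2-fold with that correction. GelMA against TCP gave a log2 ratio of -0.97 for Adamtsl2, the lowest of the 31 members in that comparison, with a ratio of 0.495 (0.465 to 0.526). Its neighbour Adamts13, which ends 69751 bases upstream on the same strand and encodes the protease of von Willebrand factor, had a CPM of 67.5, 73.3 and 68.3 on TCP, GelMA and GelMA-PSS. The ratio of Adamts13 on GelMA-PSS was 0.933 (0.905 to 0.961) to GelMA and 1.01 (0.985 to 1.04) to TCP. The log2 ratio of Adamts13 was -0.10 to GelMA and 0.02 to TCP, the sign against TCP turned when TMM factors were left out, and the value against GelMA turned to 0.20 after the correction.

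Adamtsl1 and Adamtsl3, which encode large repeat proteins of the matrix, had levels on TCP and GelMA close to each other and lower ones on GelMA-PSS. Adamtsl1 had a CPM of 33.2 on TCP, 31.6 on GelMA and 14.7 on GelMA-PSS, and its ratio was 0.464 (0.440 to 0.490) against GelMA and 0.443 (0.422 to 0.466) against TCP. Adamtsl3 had a CPM of 8.48, 7.22 and 2.83 in the same order, and its ratio was 0.392 (0.348 to 0.440) against GelMA and 0.333 (0.299 to 0.371) against TCP. Their transcripts have 7839 and 7249 bases. The log2 ratio of Adamtsl1 was -1.06 and -1.12 and the corrected one -0.41 and -0.65, and for Adamtsl3 the values were -1.10 and -1.31 as measured and -0.57 and -0.91 corrected. Neither stayed past 2-fold after the correction.

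Adamtsl4, linked to the fibrillin fibers that hold the lens, had a CPM of 26.0 on TCP, 20.1 on GelMA and 16.1 on GelMA-PSS, with log2 ratios of -0.30 to GelMA and -0.66 to TCP. Adamtsl5 had a CPM of 263, 157 and 210, and was the ADAMTS-like gene with the shortest transcript (1957 bases) and the highest level per kilobase. GelMA-PSS lay between the controls for Adamtsl5, with log2 ratios of 0.42 to GelMA and -0.32 to TCP, and GelMA against TCP gave -0.74. Its ratio on GelMA-PSS was 1.34 (1.31 to 1.36) to GelMA and 0.798 (0.787 to 0.810) to TCP. In all 5 ADAMTS-like genes taken by symbol TCP had the highest of the 3 values. The ADAMTS-like relative Thsd4, which has another symbol and is given below, was lowest on TCP.

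The inhibitors made up the larger share of the family's expression. Timp1, which encodes a secreted inhibitor of many MMPs, had a CPM of 199 on TCP, 256 on GelMA and 469 on GelMA-PSS, from 24257, 23240 and 85049 counts. The level was lowest on TCP and highest on GelMA-PSS. The ratio of GelMA-PSS was 1.84 (1.81 to 1.86) to GelMA and 2.36 (2.32 to 2.39) to TCP, which gave log2 ratios of 0.87 and 1.23. With its transcript of 883 bases, Timp1 had corrected log2 ratios of 0.34 and 0.77, so it was no longer past 2-fold against TCP. Timp2, the inhibitor that also takes part in proMMP2 activation, showed the reverse order, with a CPM of 1583, 1202 and 1106. Its ratio to TCP was 0.699 (0.695 to 0.703) on GelMA-PSS and 0.760 (0.754 to 0.765) on GelMA, while GelMA-PSS against GelMA gave 0.920 (0.913 to 0.927) for Timp2, a log2 ratio of -0.12.

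Timp3, the inhibitor that binds to the matrix and also blocks ADAMTS proteases, had a CPM of 105, 120 and 118 on TCP, GelMA and GelMA-PSS. GelMA and GelMA-PSS could not be separated for Timp3 at this depth, with a ratio of 0.985 (0.963 to 1.01), while GelMA-PSS over TCP was 1.13 (1.11 to 1.16). Exons of Syn3 on the other strand cover 36.7% of the chosen Timp3 transcript, but Syn3 had between 149 and 215 counts against 10900 to 21407 for Timp3. Timp4 had a CPM of 1.16, 1.01 and 1.36, the lowest of the 4 inhibitors, with log2 ratios of 0.23 to GelMA and 0.13 to TCP. Timp4 did not differ detectably between GelMA-PSS and TCP, with a ratio of 1.17 (0.950 to 1.45).

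Levels of different genes were compared per kilobase of transcript. Timp1 stood at 226, 290 and 532 CPM per kilobase on TCP, GelMA and GelMA-PSS, and Timp2 at 427, 324 and 298. The order of the inhibitors therefore differed between libraries, Timp2 leading on both controls and Timp1 leading on GelMA-PSS. Timp1 was 33.4% of the summed TIMP level on TCP, 45.3% on GelMA and 62.2% on GelMA-PSS, and Timp2 was 63.2%, 50.7% and 34.9%. Summed over families, TIMPs stood at 675, 639 and 855 CPM per kilobase, MMPs at 207, 209 and 180, ADAMTS proteases at 132, 126 and 92.7, and ADAMTS-like genes at 155, 94.5 and 115. The ratio of summed TIMP to summed MMP levels was 3.26 on TCP, 3.05 on GelMA and 4.74 on GelMA-PSS. Timp1 has the shortest transcript of the 31 members, and the part of transcript length in these sums was not tested. Without division by length, summed CPM was 1887, 1579 and 1695 for TIMPs and 591, 598 and 508 for MMPs. On that scale the TIMP sum was lower on GelMA-PSS than on TCP. After the correction the log2 ratio of Timp1 stayed above 0 against both controls, as given above, while that of Timp2 was 0.00 against GelMA and -0.42 against TCP.

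**Figure D3:**
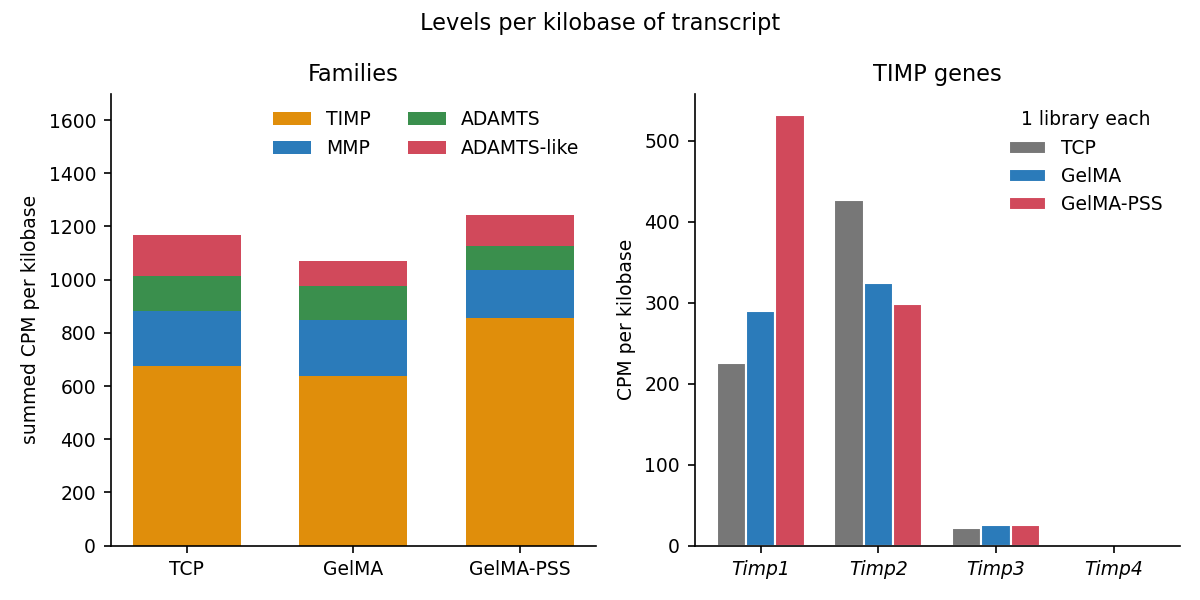
Left, summed CPM per kilobase of transcript for the 4 families, stacked, in the 1 library of each substrate. Right, CPM per kilobase of each TIMP gene in the same libraries, where Timp2 leads on TCP and GelMA (427 and 324) and Timp1 leads on GelMA-PSS (532).

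Of the gelatinases, Mmp2 was expressed, and Mmp9 stayed under the CPM limit on every substrate and was near the detection floor on TCP and GelMA-PSS. Mmp2 had a CPM of 115 on TCP, 141 on GelMA and 120 on GelMA-PSS, highest on the plain gelatin hydrogel. The ratio of GelMA to TCP was 1.22 (1.19 to 1.25) and of GelMA-PSS to GelMA 0.853 (0.834 to 0.872). GelMA-PSS and TCP were close, at 1.04 (1.02 to 1.06), and the log2 ratio of 0.06 for Mmp2 in that comparison turned negative without TMM factors. Mmp9 had 6 counts on TCP, 34 on GelMA and 9 on GelMA-PSS, a CPM of 0.0493, 0.374 and 0.0497. The ratio for Mmp9 was 7.59 (3.15 to 22.1) for GelMA against TCP and 0.133 (0.0560 to 0.283) for GelMA-PSS against GelMA. It thus had its highest value on the same substrate as Mmp2, at a level under the CPM limit. Among the 6560 genes under CPM 1 with a count, 44.4% had their highest CPM on GelMA, and 9 of 15 such members did, Mmp9 among them.

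Of the 4 expressed members listed as membrane-type MMPs, namely Mmp14, Mmp15, Mmp16 and Mmp24, 3 were lower on GelMA-PSS than on both controls. Mmp14 had a CPM of 310 on TCP, 287 on GelMA and 219 on GelMA-PSS, the highest per kilobase of all MMPs. Its ratio was 0.761 (0.750 to 0.773) against GelMA and 0.707 (0.697 to 0.717) against TCP, and the log2 ratios of -0.39 and -0.50 were -0.43 and -0.52 after the correction. Mmp15, a second transmembrane enzyme able to activate proMMP2, had a CPM of 70.5, 63.4 and 39.5, with log2 ratios of -0.67 and -0.82 and corrected ones of -0.26 and -0.50. Mmp16, a further transmembrane member, was at 1.08, 1.18 and 0.524, with log2 ratios of -0.51 to GelMA and -0.45 to TCP, and without the pseudocount its ratio was 0.445 (0.334 to 0.593) to GelMA and 0.487 (0.370 to 0.640) to TCP, past 2-fold against both. Mmp24 was the exception. This transmembrane MMP, best known from the nervous system, had a CPM of 15.8 on TCP, 13.2 on GelMA and 20.6 on GelMA-PSS, with log2 ratios of 0.61 and 0.36 that were 0.88 and 0.58 after the correction. Exons of BC029722 on the other strand cover 14.8% of the chosen Mmp24 transcript, with 2720 to 8429 counts for BC029722 against 1200 to 3740 for Mmp24, so reads of the pair may be mixed if strand was not used in counting.

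The remaining 4 expressed MMPs had their highest values on GelMA-PSS, but for Mmp23 and for Mmp28 against GelMA the counting intervals included 1. Mmp11, which acts on serpins rather than on fibrillar matrix, had a CPM of 57.7 on TCP, 61.7 on GelMA and 74.9 on GelMA-PSS, with log2 ratios of 0.27 to GelMA and 0.37 to TCP and a ratio to TCP of 1.30 (1.26 to 1.33). Mmp19 had a CPM of 15.5, 21.7 and 24.5, with log2 ratios of 0.17 and 0.63, and 23.2% of its transcript is overlapped by exons of Tmem198b on the other strand, which had 2441 to 6248 counts against 1884 to 4431 for Mmp19. Mmp28, also called epilysin, had a CPM of 2.82, 5.68 and 6.27. Both hydrogels were above TCP for Mmp28, with log2 ratios of 0.81 for GelMA and 0.93 for GelMA-PSS, while GelMA-PSS over GelMA was 1.10 (0.994 to 1.23), an interval that includes 1, and the sign of that log2 ratio turned without TMM factors. Without the added pseudocount the ratio of Mmp28 to TCP was 2.02 (1.76 to 2.32) on GelMA and 2.23 (1.97 to 2.52) on GelMA-PSS. Mmp23, a short MMP of 1434 bases, was at 1.67, 1.62 and 1.95, with log2 ratios of 0.17 and 0.14 that turned to -0.10 and -0.07 after the correction. The ratio of Mmp23 on GelMA-PSS was 1.20 (0.991 to 1.47) to GelMA and 1.17 (0.981 to 1.40) to TCP, so a difference was not detectable at this depth.

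All 4 expressed ADAMTS proteases of the proteoglycan-cleaving branch were lower on GelMA-PSS than on GelMA and TCP. Adamts1 had a CPM of 41.3 on TCP, 28.1 on GelMA and 18.8 on GelMA-PSS, with a ratio of 0.454 (0.435 to 0.475) to TCP and 0.669 (0.636 to 0.705) to GelMA. The GelMA library was also below TCP for Adamts1, at a ratio of 0.679 (0.647 to 0.712). Adamts1 fell by 1.10 against TCP on the log2 scale, while its log2 ratio to GelMA was -0.56, and the corrected values were -0.90 and -0.31. Adamts5, an aggrecan- and versican-cleaving enzyme that lies 53060 bases from Adamts1 on chromosome 16, had a closely similar series, with a CPM of 41.4, 27.6 and 21.2. The log2 ratio of Adamts5 was -0.37 to GelMA and -0.94 to TCP. Its transcript of 10791 bases is the longest among the 31 members, and the corrected log2 ratio of Adamts5 was 0.40 to GelMA and -0.40 to TCP, so that its direction against GelMA depended on the correction.

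Adamts4, another aggrecan-cleaving enzyme, had a CPM of 82.4 on TCP, 58.2 on GelMA and 46.2 on GelMA-PSS, with log2 ratios of -0.33 and -0.82 and corrected ones of -0.08 and -0.62. Adamts15, a versican-cleaving relative, stood at 10.4 on both controls and at 7.08 on GelMA-PSS, with log2 ratios of -0.49 and -0.50 and corrected ones of -0.04 and -0.16. The sign of the ratio was the same before and after the correction in all 4 genes against TCP, and in 3 of the 4 against GelMA. The median of the branch was -0.43 against GelMA and -0.88 against TCP as measured, and -0.06 and -0.51 corrected. The GelMA library was also below TCP in this branch, with a median log2 ratio of -0.52. For Adamts15, whose controls differed by -0.01, the sign in that comparison turned without TMM factors.

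**Figure D4:**
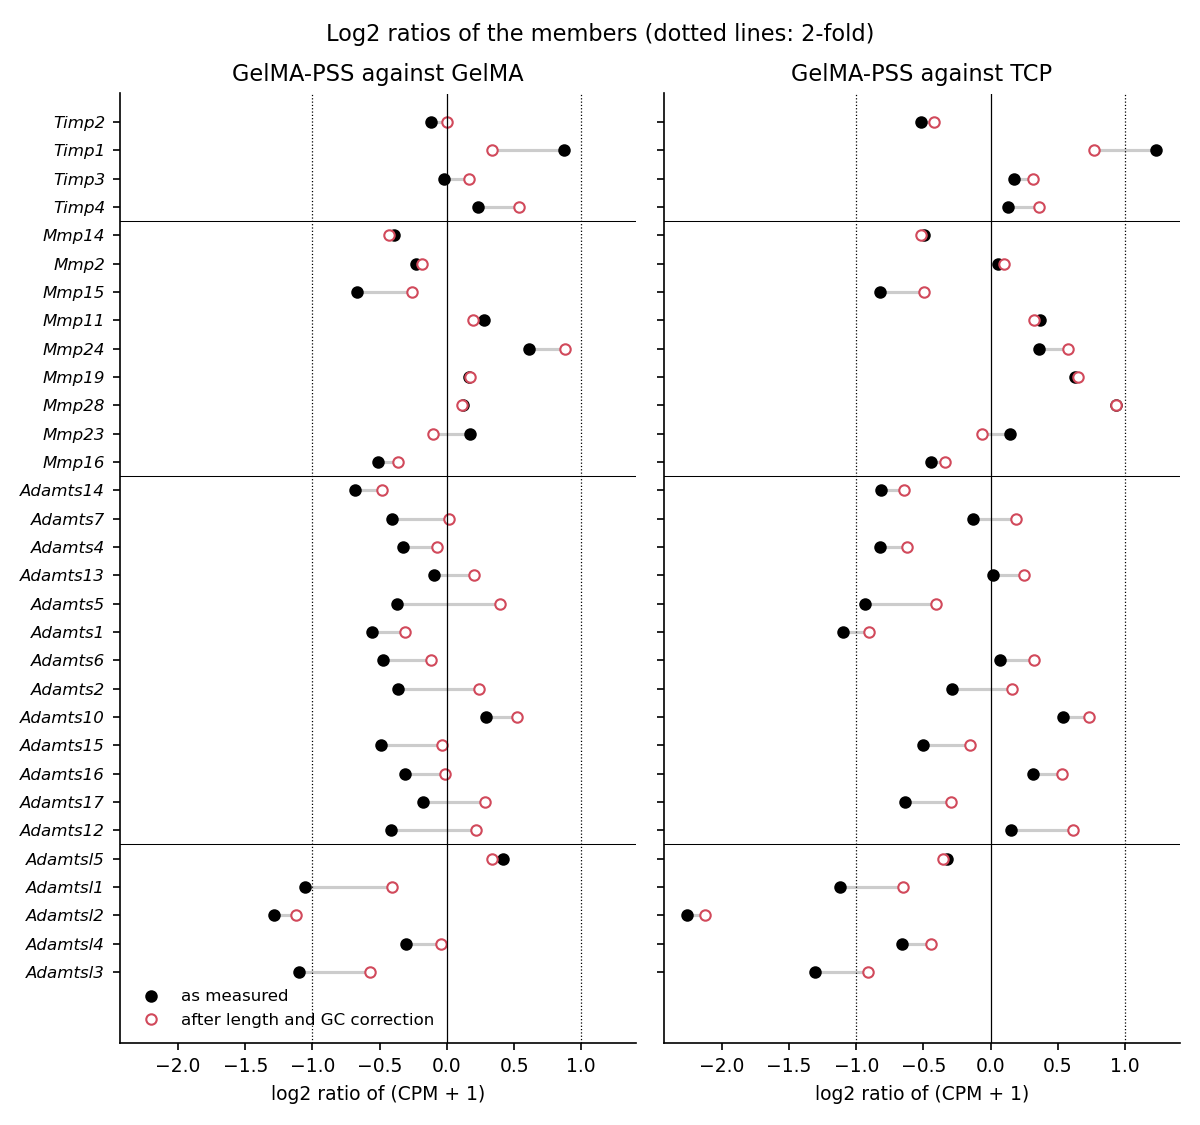
Log2 ratio of (CPM + 1) for the 31 members in GelMA-PSS against GelMA (left) and TCP (right), by family. Black points are ratios as measured, open red points are ratios after the length and GC correction, and dotted lines mark 2-fold. Against both controls, 3 ADAMTS-like genes lie beyond the left dotted line as measured, and after the correction Adamtsl2 alone does.

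Among the procollagen N-proteinases, Adamts14 had a CPM of 195 on TCP, 177 on GelMA and 110 on GelMA-PSS. Adamts14 was the ADAMTS protease with the highest level per kilobase, and its ratio was 0.622 (0.609 to 0.635) against GelMA and 0.566 (0.555 to 0.576) against TCP. The log2 ratios of -0.68 and -0.82 were -0.48 and -0.64 after the correction. Adamts2, the main N-proteinase of type I procollagen, was lower in level, with a CPM of 17.8, 18.9 and 14.4, and its log2 ratios of -0.36 and -0.29 turned to 0.24 and 0.16 after the correction.

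The proteases that cleave cartilage oligomeric matrix protein were Adamts7 and Adamts12. Adamts7 had a CPM of 114 on TCP, 138 on GelMA and 104 on GelMA-PSS, highest on GelMA, with a ratio of 1.21 (1.18 to 1.24) for GelMA against TCP and 0.754 (0.737 to 0.771) for GelMA-PSS against GelMA. Adamts7 had log2 ratios of -0.40 to GelMA and -0.13 to TCP on GelMA-PSS, and both turned with the correction, to 0.02 and 0.19. Adamts12, at 0.657, 1.46 and 0.845, was also highest on GelMA, with a ratio to TCP of 2.23 (1.68 to 2.98) that stayed below 2-fold on the log2(CPM + 1) scale, at 0.57. Its log2 ratio was -0.42 for GelMA-PSS against GelMA and 0.15 against TCP, where the ratio of 1.29 (0.975 to 1.71) had an interval that includes 1. The value against GelMA turned positive with the correction.

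Adamts6 and Adamts10, both tied to fibrillin microfibrils, differed in pattern. Adamts6 had a CPM of 23.0 on TCP, 34.0 on GelMA and 24.2 on GelMA-PSS, with log2 ratios of 0.54 for GelMA against TCP and -0.47 for GelMA-PSS against GelMA. GelMA-PSS against TCP gave 0.07 for Adamts6, which turned negative without TMM factors. Adamts10 had a CPM of 10.7, 12.9 and 15.9, and was, as measured, the 1 expressed ADAMTS protease higher on GelMA-PSS than on both controls, with log2 ratios of 0.29 and 0.54 and corrected ones of 0.52 and 0.73. After the correction 5 ADAMTS proteases were higher than both, with Adamts2, Adamts7, Adamts12 and Adamts13 added. Adamts16 was highest on GelMA, at 1.84, 3.38 and 2.53, with log2 ratios of -0.31 for GelMA-PSS against GelMA and 0.32 against TCP. Adamts17 was highest on TCP, at 1.17, 0.583 and 0.397, with log2 ratios of -0.18 to GelMA, which turned to 0.28 after the correction, and -0.64 to TCP. Without the pseudocount its ratio to TCP was 0.338 (0.251 to 0.452) on GelMA-PSS.

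The 20 members under CPM 1 included the 4 members listed as collagenases, Mmp1a, Mmp1b, Mmp8 and Mmp13. Listed at 0 in all 3 libraries were Mmp1a and Mmp1b, the rodent relatives of interstitial collagenase, the matrilysin Mmp7, and Mmp27 and Adamts19. A count of 0 allows up to 3 counts, a CPM of 0.0246 on TCP, 0.0330 on GelMA and 0.0166 on GelMA-PSS, so these 5 were not detectable at this depth. Mmp20, the enzyme of tooth enamel, Mmp21 and Adamts18 had 3 counts or fewer in each library. The other listed collagenases were also low, with 2 to 5 counts for Mmp8 and 2 to 8 for Mmp13. Counts ranged from 19 to 22 for the stromelysin Mmp3, from 17 to 53 for the macrophage elastase Mmp12, from 27 to 65 and from 3 to 7 for Mmp17 and Mmp25, which are held to the membrane by a lipid anchor, from 36 to 71 for Adamts3, from 16 to 22 for Adamts9 and from 0 to 7 for Adamts20.

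The low members described next were chosen after their values were seen. The stromelysin Mmp10 had 31 counts on TCP, 10 on GelMA and 110 on GelMA-PSS, a CPM of 0.255, 0.110 and 0.607. Its ratio on GelMA-PSS was 5.52 (2.89 to 11.8) to GelMA and 2.39 (1.59 to 3.68) to TCP. Mmp3 is a close paralog next to Mmp10, and how the counting divided reads between them is not known. Adamts8, of the proteoglycan-cleaving branch, had 115, 50 and 44 counts, a CPM of 0.944, 0.550 and 0.243, in the same order as Adamts1, Adamts4 and Adamts5. The ratio of Adamts8 on GelMA-PSS was 0.257 (0.177 to 0.367) to TCP and 0.441 (0.288 to 0.676) to GelMA. Mmp17 had 27, 65 and 58 counts, a CPM of 0.222, 0.715 and 0.320, with a ratio of 3.23 (2.03 to 5.26) for GelMA against TCP and 0.448 (0.309 to 0.648) for GelMA-PSS against GelMA. It was thus highest on GelMA, as was Mmp9. Adamts9, a further protease of the proteoglycan-cleaving branch, had 16, 22 and 16 counts and a ratio of 0.365 (0.179 to 0.727) for GelMA-PSS against GelMA, and the 7 counts of Adamts20 all lay in the GelMA library.

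**Figure D5:**
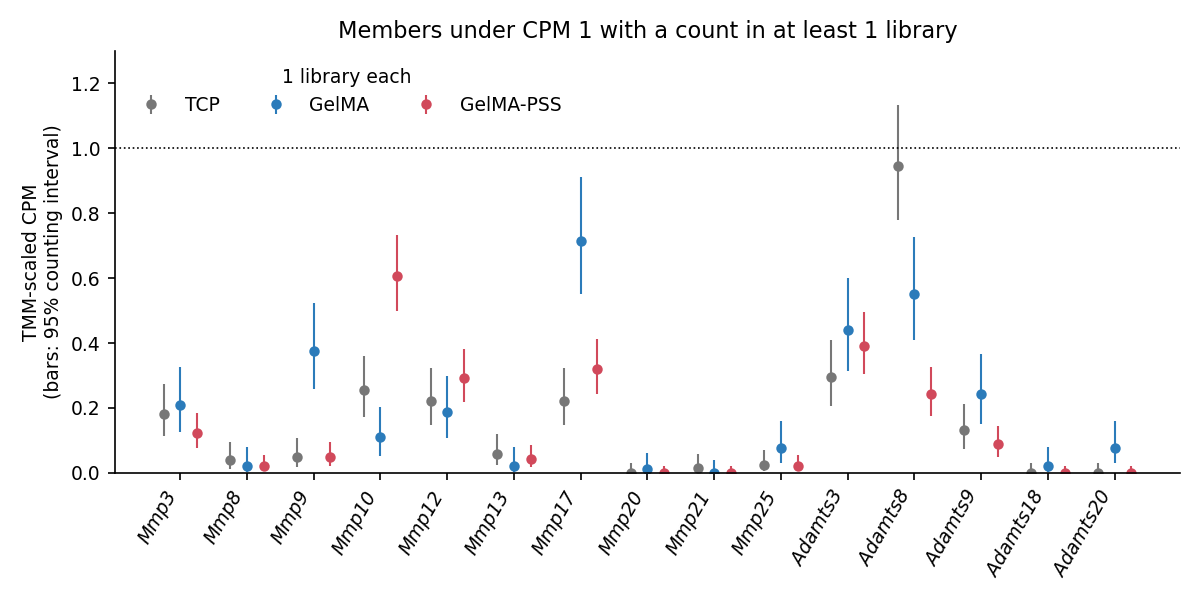
CPM of the 15 members under CPM 1 that had a count in at least 1 library, by gene. Points are single libraries (grey TCP, blue GelMA, red GelMA-PSS), bars the 95% counting interval, and the dotted line marks CPM 1. Mmp9 and Mmp17 are highest on GelMA (0.374 and 0.715), Mmp10 on GelMA-PSS (0.607) and Adamts8 on TCP (0.944).

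Of the 14 MMPs under CPM 1, 10 lie together in the genome. This cluster, which holds the 4 listed collagenases and the stromelysins Mmp3 and Mmp10, spans chr9:7272514-7699585 in GRCm38. In this cluster 4 of the 10 genes were at 0 in all 3 libraries, and the highest CPM was the 0.607 of Mmp10. All 10 together had 92 counts on TCP, 51 on GelMA and 197 on GelMA-PSS, a summed CPM of 0.756, 0.561 and 1.09. Mmp10 alone had 31, 10 and 110 of these counts, a CPM of 0.255, 0.110 and 0.607, so the higher sum on GelMA-PSS describes Mmp10 and not the cluster as a whole. Promoter sequences of RefSeq on GRCm38.p6, from 250 bases before to 50 after the start, were found for 36 of the 51 members and searched for 2 motifs. The AP-1 motif TGANTCA, which reads alike on both strands, occurred in 7.81% of all 32841 promoter windows and the TATA motif TATAAA, searched on the strand of the gene, in 8.32%. AP-1 matches were found in 8 of the 10 cluster genes, namely Mmp1a, Mmp1b, Mmp3, Mmp7, Mmp10, Mmp12, Mmp13 and Mmp20, and in 0 of the 20 expressed members with a window. A member counted when any of its windows matched, whereas the shares of all windows are per window, so the units differ. The AP-1 match read TGAATCA in Mmp20, TGACTCA in Mmp13 and TGAGTCA in the others. The same 8 cluster genes held a TATA match, as did Mmp21, and of the expressed members Adamts1 and Adamtsl2 did. Both motifs occurred together in 0.996% of all windows. A match is a description of the letters and not evidence of a bound site.

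Promoter stretches from 100 bases before to 20 after the start are shown 5′ to 3′ for 4 members described above, with matches to either motif in capitals. Mmp10 stands for the cluster, Adamtsl2 and Adamts1 are the expressed members with a TATA match, and Timp1, the 1 member called higher than TCP on the log2(CPM + 1) scale, has a match to neither motif.
Mmp10: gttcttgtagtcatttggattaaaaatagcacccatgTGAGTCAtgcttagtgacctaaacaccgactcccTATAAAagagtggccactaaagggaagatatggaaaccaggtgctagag
Adamtsl2: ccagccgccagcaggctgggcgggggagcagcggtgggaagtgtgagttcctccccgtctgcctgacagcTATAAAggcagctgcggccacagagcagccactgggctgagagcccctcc
Adamts1: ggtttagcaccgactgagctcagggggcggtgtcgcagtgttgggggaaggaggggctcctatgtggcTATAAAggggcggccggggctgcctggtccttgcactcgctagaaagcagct
Timp1: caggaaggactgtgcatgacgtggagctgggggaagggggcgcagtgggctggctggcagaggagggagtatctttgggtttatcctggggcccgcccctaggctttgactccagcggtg
The stretches are chr9:7502242-7502361 (+) for Mmp10, chr2:27079279-27079398 (+) for Adamtsl2, chr16:85803094-85803213 (-) for Adamts1 and chrX:20870066-20870185 (+) for Timp1. The TATA match begins at position -29 in Mmp10, -30 in Adamtsl2 and -32 in Adamts1, counted from the start with no position 0, and the AP-1 match of Mmp10 begins at -63.

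Other proteolytic systems of the matrix were followed with gene lists, which were chosen with earlier results of these data known. In the plasminogen activation list, 4 of 7 genes were above the CPM limit, and 1 was higher by more than 2-fold against both controls and 0 were lower. Plaur, the receptor that holds urokinase at the cell surface, had a CPM of 9.22 on TCP, 17.0 on GelMA and 35.1 on GelMA-PSS, with log2 ratios of 1.01 to GelMA and 1.82 to TCP and corrected ones of 0.71 and 1.58. Plau, which encodes urokinase, had a CPM of 158, 191 and 284, and Plat, the tissue-type activator, 58.8, 69.4 and 88.2. Serpine2, an inhibitor of these activators that was named after its values were seen, followed the same order, with a CPM of 17.9, 23.7 and 28.6. The 4 transcripts have 1506 to 2525 bases, against a median of 2914 over all genes. Corrected log2 ratios to GelMA and TCP were 0.39 and 0.72 for Plau, 0.22 and 0.49 for Plat, and 0.06 and 0.51 for Serpine2. As measured, the median log2 ratio of the 4 genes was 0.46 against GelMA and 0.75 against TCP. It was 0.33 for GelMA against TCP, and all genes tested had 0.03, 0.04 and -0.01 in these comparisons. Timp1 had the same order of libraries, as did 5 of the 31 expressed members in all and 22.5% of all genes tested. The opposite order, highest on TCP and lowest on GelMA-PSS, was found in 13 of the 31 and in 21.2% of all genes tested.

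Among 11 ADAMs, the membrane-bound relatives of the ADAMTS proteases, 8 were above the limit, 0 were higher and 1 was lower against both controls. The lower one was Adam12, a marker of fusing myoblasts, with a CPM of 7.32 on TCP, 7.48 on GelMA and 2.11 on GelMA-PSS and log2 ratios of -1.45 and -1.42, which were -0.87 and -0.99 after the correction. The most abundant ADAMs were Adam9, with a CPM of 221, 206 and 194, and Adam19, with 207, 215 and 138. Of 11 other MMP inhibitors and surface regulators, 6 were above the limit, 0 were higher and 1 was lower against both controls. This was Lrp1, the endocytic receptor that clears MMP and TIMP complexes, with a CPM of 1273, 1818 and 626. Its transcript has 14888 bases, and the log2 ratios of -1.54 and -1.02 for Lrp1 were -0.31 and -0.16 after the correction. Bsg, a surface inducer of MMPs, had a CPM of 602, 710 and 1186, with log2 ratios of 0.74 and 0.98 and corrected ones of 0.48 and 0.78.

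The 9 listed substrates and relatives of ADAMTS proteases had 4 genes above the limit and 0 past 2-fold against both controls. Vcan, which encodes versican, had a CPM of 103 on TCP, 230 on GelMA and 116 on GelMA-PSS. Its log2 ratio for GelMA against TCP was 1.16 as measured and 0.97 after the correction, then short of 2-fold. Fbn1, which encodes the fibrillin that ADAMTS-like proteins bind, had 307, 475 and 217, and its log2 ratio of -1.13 for GelMA-PSS against GelMA was -0.16 after the correction. For Vcan the corresponding values were -0.98 and -0.10. Of the 4 genes, Vcan, Fbn1 and the ADAMTS-like relative Thsd4 were highest on GelMA, with a CPM of 4.53, 9.77 and 5.60 for Thsd4. Comp, the cartilage oligomeric matrix protein, was highest on TCP, at 6.31, 5.43 and 4.38, and these 2 genes were named after their values were seen.

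Of the proprotein convertases, which activate ADAMTS and membrane-bound MMP zymogens, 3 of 4 were above the limit and 0 were past 2-fold in any comparison. Furin had a CPM of 115, 140 and 96.7, and Pcsk7 of 36.1, 37.6 and 33.9. Of the astacins and procollagen C-proteinase enhancers, 3 of 7 were above the limit and 0 were past 2-fold, with Pcolce at 363, 368 and 428 and the C-proteinase Bmp1 at 222, 238 and 206. Of the cathepsins, 3 of 5 were above the limit and 0 were past 2-fold. Ctsl had a CPM of 711, 803 and 1166 and Ctsb of 778, 799 and 891.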

How the data were processed

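The authors deposited whole-number counts per gene symbol for 1 library each of TCP, GelMA and GelMA-PSS. Per the methods, strand-specific paired-end reads came from a TruSeq kit, whereas the labels name a SMARTER kit. The submitters' processing notes name TopHat, edgeR, mm10 and hg19 without roles. The counting tool and annotation are not given in the sources used here, nor whether strand was used or both reads of a pair were counted. In every library more genes had a count of 2 than of 1. If both reads were counted, the intervals are too narrow.

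Lines sharing 1 of 35 repeated symbols were summed; 0 members were affected. CPM with TMM factors (edgeR 4.0.16 in R 4.3.3; 1.02, 1.04 and 0.943) took the place of the study's FPKM. Genes that reached CPM 1 on any substrate entered the comparisons, and calls are 2-fold ratios on log2(CPM + 1) with a pseudocount of 1. Intervals at 95% are exact, from the Poisson distribution for CPM and from the binomial distribution (Clopper-Pearson, scipy 1.17.1) for ratios, and cover counting error only. Lengths, GC content and coordinates came from GENCODE vM21 (GRCm38), 1 transcript per gene; symbols matched directly for 22197 genes and by an older symbol for 666, and 375 were not matched. The correction subtracts a loess fit on log2 length and then one on GC content (statsmodels 0.14.6, span 0.3). The code was tested on simulated data. Alternatives covered the threshold, pseudocount, filter, scaling and this correction.

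Members and lists were chosen with earlier results of these data known. Every member is named. Genes of other lists are named when past 2-fold against both controls or among the 2 most abundant of their list. One listed gene is not reported here.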

Additional observations from a re-analysis of the deposited data

How the results depend on the processing

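No paired analysis was possible because each substrate has 1 library, and for the same reason no replicate could be left out. The counts of members did not change with median-of-ratios scaling or with no filter on low counts. Without TMM factors they changed by at most 1, as Adamts5 joined the members lower than TCP, which made 5 (4.38% of all genes). That scaling moved the median of all genes by -0.13 against GelMA and -0.10 against TCP, and gave 97 genes higher and 261 lower against both controls in place of 180 and 153. With a 1.5-fold threshold 1 member was higher and 5 were lower against both controls (8.08% and 7.18% of all genes), 2 and 5 against GelMA (11.0% and 10.8%), 3 and 10 against TCP (13.2% and 11.5%), and 2 and 2 on GelMA against TCP (3.50% and 2.12%). A pseudocount of 0.1 gave 2 members higher (Mmp28 added) and 5 lower (Adamts17 added) than TCP on GelMA-PSS (5.30% and 4.78% of all genes). It gave 4 lower than GelMA (Mmp16 added, 3.99%). On GelMA against TCP it gave 1 higher (Adamts12, 1.62%) and 1 lower (Adamtsl2, 0.805%). After the correction for transcript length and GC content, 1 of 31 members (Adamtsl2) was lower against both controls (0.628% of all genes). The same 1 was lower against GelMA (1.20%) and against TCP (2.40%), and 0 were higher than TCP (2.02%). Of 93 log2 ratios of single members, 14 changed sign with the correction, 5 without TMM factors and 0 under the other settings, and none of these was past 2-fold. With 1 library per substrate, differences between cultures cannot be told apart from differences between substrates, and genes under CPM 1 are limited by depth.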
